A study of Mus musculus with 11 samples.

Results

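The 35 genes described here are interferon-stimulated genes, chosen by symbol from the gene table of an RNA-Seq study of aged mouse kidney. All 35 symbols were found among the 53801 genes listed, and all 35 had enough reads to be among the 18160 genes tested. The study asked how loss of CPT1A, the enzyme that lets long-chain fatty acids enter mitochondria, affects the aging kidney. Renal cortex was taken from 6 Cpt1aCKO mice and 5 floxed control mice, 1 library per mouse. Cpt1aCKO mice carried floxed *Cpt1a* alleles with Pax8-rTTA and tetO-Cre, which recombine the gene in renal tubules and leave it intact in other kidney cells. Floxed control mice carried the floxed alleles. Labels on blots of aged kidneys in the study name Pax8 for both groups and LC1, a tetO-Cre line, for a single group, while the sample labels list no transgene for the controls. All mice were male, of mixed strain background and aged for 2 years in pathogen-free housing. Both groups were given doxycycline food for 3 weeks at an age of 5 to 8 weeks. *Cpt1a* itself stood at 38.4 to 97.3 CPM in Cpt1aCKO mice, against 418 to 548 CPM in floxed control mice, so every library matched its label. CPM is the count of a gene relative to all counted reads of its library, scaled to a common total after TMM normalization.

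Interferons are secreted by cells that sense viral or misplaced nucleic acid. Type I interferons signal through IFNAR and the kinases JAK1 and TYK2 to a complex that holds STAT2 and IRF9 and binds the interferon-stimulated response element (ISRE) in target promoters. Type II interferon, from T and NK cells, acts at gamma-activated sites (GAS), and many targets answer to both. In kidney, tubule cells, endothelium and resident macrophages can all express these targets, so a level in whole cortex is a sum over cell types. In such tissue fewer cells of a type and less RNA per cell cannot be told apart.

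None of the 35 genes passed the test between the genotypes after adjustment over all genes tested. In edgeR's quasi-likelihood test 0 of 35 had an adjusted p under 0.05 (smallest adjusted p = 0.802), where 0.0165% of all genes tested did, and in DESeq2 0 of 35 did, against 0.275% of all genes. At an unadjusted p under 0.05 in edgeR, *Parp14*, *Igtp*, *Mx2*, *Cmpk2* and *Ddx58* were on the higher side in Cpt1aCKO mice and 0 were on the lower side. The share on the higher side was 5 of 35 (14.3%), where 3.35% of all genes tested were on the higher side and 2.57% on the lower (5.93% in all). DESeq2 at an unadjusted p under 0.05 also put 5 of 35 on the higher side and 0 on the lower, against 3.81% and 2.91% of all genes. By the exact permutation test over mice, *Mx2* and *Ddx58* had an unadjusted p under 0.05, which is 2 of 35 (5.71%), against 5.97% of all genes tested. Log2 fold changes, Cpt1aCKO over floxed control, were positive for 29 of 35 genes (82.9%), against 51.4% of all genes tested. Their median was 0.12, against 0.01 over all genes, and they ran from -1.38 for *Trim30a* to 1.54 for *Mx2*. The groups overlapped for all 35 genes, while 0.611% of all genes had groups that did not overlap.

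**Figure D1:**
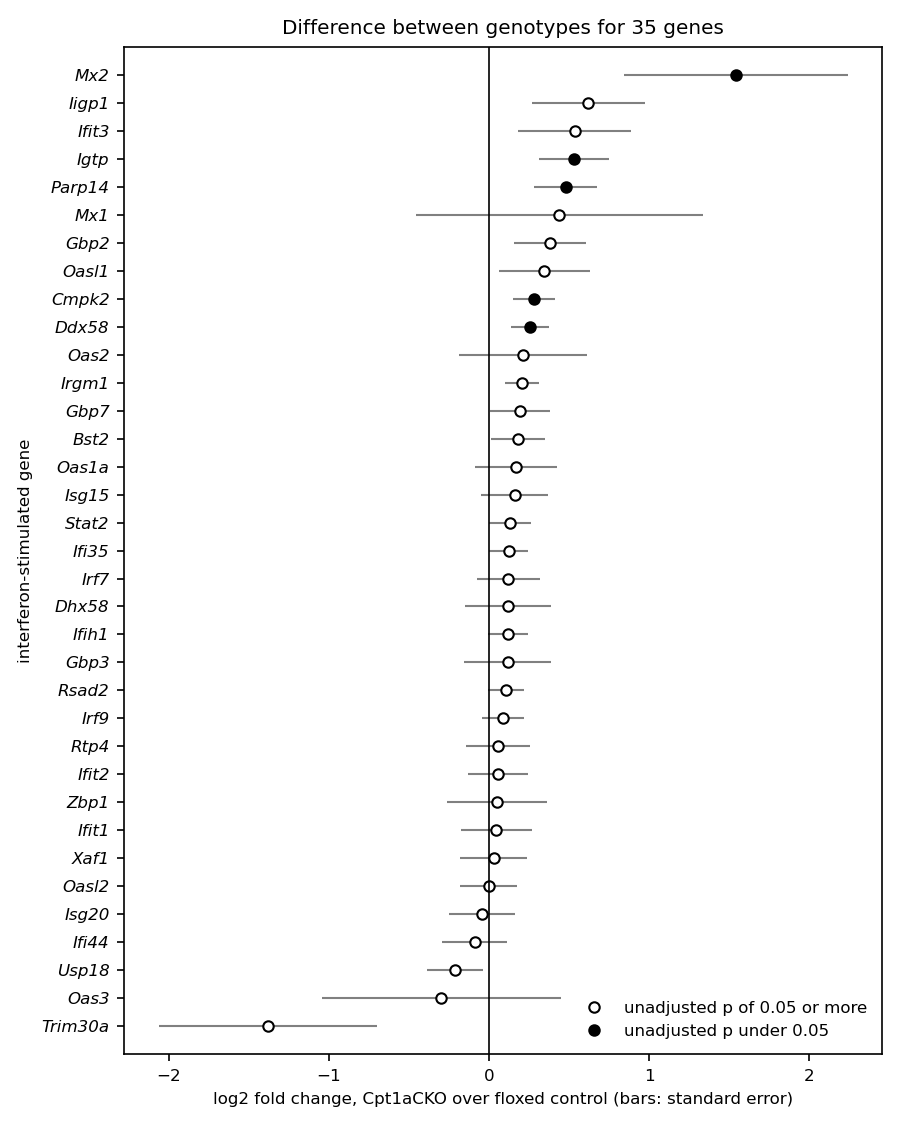
Log2 fold change of each of the 35 genes, Cpt1aCKO (n = 6) over floxed control (n = 5), with its standard error from edgeR as a bar and the genes ordered by fold change. Filled points mark the 5 genes at an unadjusted p under 0.05, all on the positive side, and *Mx2* and *Trim30a* lie at the ends with wide errors.

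The count on the higher side changed with single mice. Without the Cpt1aCKO mouse S2155 it was 0 of 35, where 3.52% of all genes were still on the higher side, and the positive log2 fold changes numbered 21 with a median of 0.05. It was 1 without the floxed control mouse S2578 (*Mx2*), 2 without the Cpt1aCKO mouse S2394 (*Mx2* and *Parp14*) and 2 without S2397 (*Igtp* and *Parp14*). Without the floxed control mouse S2152 it was 3 (*Gbp2*, *Igtp* and *Parp14*), and without S7762 it was 3 (*Ddx58*, *Irgm1* and *Parp14*). The count was 4 without the floxed control mouse S2582, and also 4 without the Cpt1aCKO mouse S7763 or S2577. The highest count was 7, reached without the floxed control mouse S7601 and also without the Cpt1aCKO mouse S7602. In these fits the share of all genes on the higher side ran from 2.54% without S2397 to 5.4% without S2577. It was 2.63% without S2578.

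Within each genotype the 35 genes varied more between mice than all genes tested did at the median. The SD of log2 CPM between mice, with the genotype means removed, had a median of 0.36 over the 35 genes, against 0.27 over all genes tested. S2155 was the highest of the 11 mice for 16 of the 35 genes, although it was the highest for 11.9% of all genes tested, and it was among the 3 highest for 28. Its median gene stood 0.43 above the mean of the 11 mice on the log2 scale. The next were S2397 (Cpt1aCKO) at 0.22, among the 3 highest for 20 genes, and S7601 (floxed control) at 0.23, among the 3 highest for 15.

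At the other end, S7602 (Cpt1aCKO) was the lowest mouse for 9 genes and among the 3 lowest for 19, with a median of -0.30. It was the lowest for 8.76% of all genes tested. S2152 (floxed control) was the lowest for 6 genes and among the 3 lowest for 16. The highest and the lowest mouse in these genes were therefore both Cpt1aCKO mice. Summed over the 35 genes, Cpt1aCKO mice ran from 298 CPM in S7602 to 472 CPM in S2155 with a median of 374 CPM, and floxed control mice stood at 298, 398, 356, 314 and 309 CPM.

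**Figure D2:**
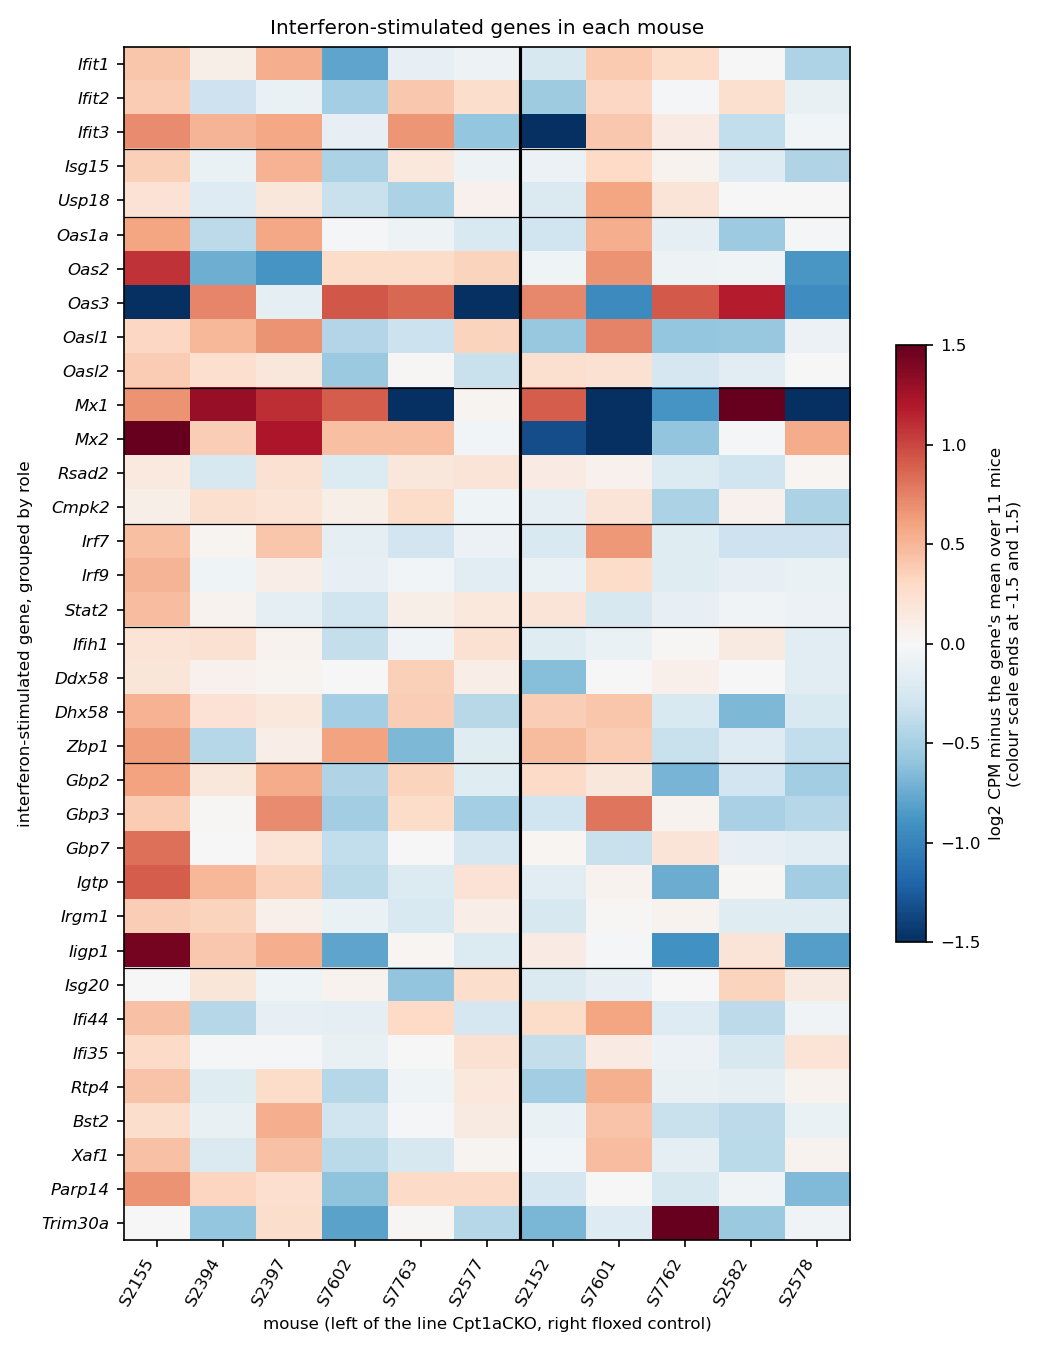
Log2 CPM of the 35 genes (rows, grouped by role) in each of the 11 mice (columns), minus each gene's mean over the mice, with the 6 Cpt1aCKO mice left of the line and the 5 floxed control mice right of it. The column of S2155 is red in most rows and that of S7602 blue in most, both among the Cpt1aCKO mice, and single dark cells mark *Ifit3* in S2152 and *Trim30a* in S7762.

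The genes for which these 3 mice were highest were spread over several roles each. S2155 was highest for 5 of the 6 immunity-related GTPases and guanylate-binding proteins, for *Ifit3*, *Oas1a*, *Oas2*, *Oasl2* and *Mx2*, for the transcription factors *Irf9* and *Stat2*, and for *Dhx58*, *Zbp1*, *Ifi35* and *Parp14*. S7601 was highest for *Irf7*, *Usp18*, *Oasl1*, *Gbp3*, *Ifi44*, *Rtp4* and *Xaf1*. S2397 was highest for *Ifit1*, *Isg15*, *Rsad2* and *Bst2*. Over the 6 GTPases the median stood 0.72 above the gene mean in S2155 and 0.04 above it in S7601, on the log2 scale. Over the 5 OAS genes it stood 0.38 above the mean in S2155 and 0.55 above it in S7601. Over *Ifit1*, *Ifit2* and *Ifit3* it was at 0.41 in S2155 and 0.39 in S7601. Over *Mx1*, *Mx2*, *Rsad2* and *Cmpk2* it was at 0.41 in S2155 and -1.10 in S7601. The low median in S7601 came from *Mx1* and *Mx2*, which had 0 reads in that mouse. There *Rsad2* and *Cmpk2* stood 0.07 and 0.19 above their means.

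**Figure D3:**
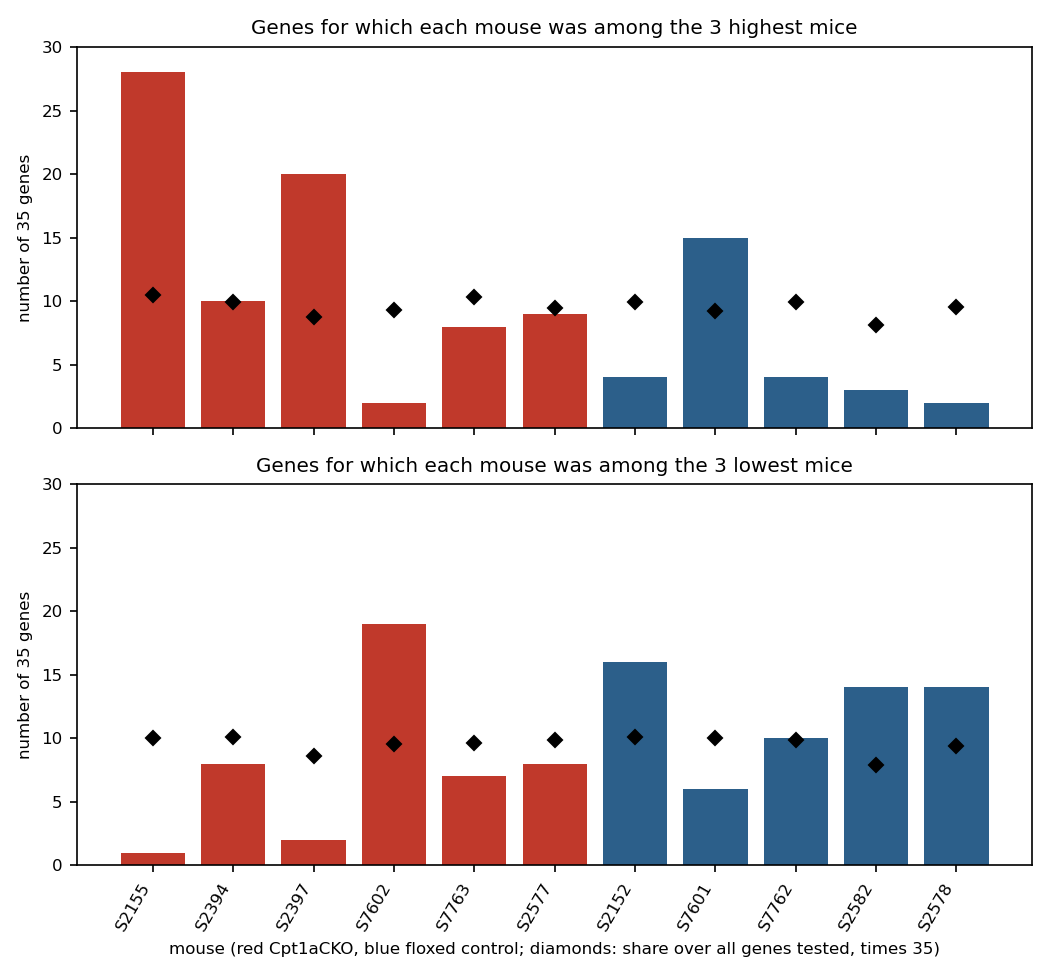
Number of the 35 genes for which each mouse was among the 3 highest of 11 (upper panel) or among the 3 lowest (lower panel), Cpt1aCKO mice in red on the left and floxed control mice in blue on the right. Diamonds give the number that the mouse's share over all genes tested would make of 35 genes, and S2155 at 28 in the upper panel and S7602 at 19 in the lower panel lie farthest above theirs.

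Markers of other cells were read in the same libraries. All 15 macrophage markers had reads, and their summed level was 190 to 265 CPM in Cpt1aCKO mice, against 160 to 213 CPM in floxed control mice. Of these 15, *C1qa*, *C1qb*, *Cd14* and *Itgam* were on the higher side in Cpt1aCKO mice at an unadjusted p under 0.05 and 0 on the lower. Over all genes tested, 3.35% were on the higher side and 2.57% on the lower. For *C1qa* and *Itgam* every Cpt1aCKO mouse lay above every floxed control mouse (edgeR adjusted p = 0.527 and 0.483), where 0.341% of all genes lay wholly above. The macrophage sum in S2155 was 190.2 CPM, the lowest of the 6 Cpt1aCKO mice and close to the 190.7 CPM of S7602. Single markers differed, since S2155 was the highest of the 11 mice for *Cd68* (6.36 CPM) and *Fcgr1* (1.18 CPM). It was the lowest for the abundant *Csf1r* (40.0 CPM). Of 15 T and NK cell markers, 11 could be tested. At an unadjusted p under 0.05, 3 were on the higher side (*Cd4*, *Lck* and *Thy1*) and 0 on the lower. Over all genes tested these shares were 3.35% and 2.57%. The edgeR adjusted p was 0.833 for *Lck* and 0.839 for *Thy1*, which had 2 to 39 reads per mouse. The summed level was 28.9 CPM in S2397 and 12.1 CPM in S2155, against 10.6 to 13.5 CPM in floxed control mice. The B and plasma cell markers summed to 60.3 CPM in S2155 and 871 CPM in S2397, against 134 to 503 CPM in floxed control mice. Of the 9 that could be tested, 0 were on the higher side at an unadjusted p under 0.05. *Iglc1* was on the lower side (log2 fold change -1.56, edgeR adjusted p = 0.772). *Cd4* stood at 0.58 to 2.42 CPM in Cpt1aCKO mice and did not overlap the 0.255 to 0.539 CPM of floxed control mice (edgeR adjusted p = 0.455, DESeq2 adjusted p = 0.0296). Of 7 distal tubule and collecting duct markers, *Umod*, *Slc12a3* and *Calb1* were on the lower side in Cpt1aCKO mice at an unadjusted p under 0.05 (edgeR adjusted p = 0.755, 0.839 and 0.674), and the summed level was 5403 to 7090 CPM in Cpt1aCKO mice, against 5697 to 7170 CPM in floxed control mice. None of 8 endothelial, 8 proximal tubule, 5 podocyte, 5 plasmacytoid dendritic cell and 1 neutrophil markers tested reached an unadjusted p under 0.05 in edgeR, and DESeq2 put 2 of them, both proximal tubule markers, under it. The part of these cells in the levels of the interferon-stimulated genes was not tested.

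The letters at the start of these genes were read from RefSeq promoters of the GRCm38.p6 build, a window of 250 bases before to 50 after each start, since the members are defined by a response that acts there. Of the 35 genes, 26 had a promoter in the table, and *Usp18*, *Parp14*, *Mx2*, *Oas2*, *Dhx58*, *Mx1*, *Iigp1*, *Zbp1* and *Rtp4* did not. The ISRE core, searched as GAAANNGAAA on either strand, was found in 16 of 26 (61.5%), against 1079 of 27025 genes of the table (3.99%). The GAS, searched as TTCNNNGAA, which reads the same on both strands, was found in 7 of 26 (26.9%), against 9.55% of genes. The 2 searches could overlap in a promoter, and a match is a description of letters. *Isg15* held 3 overlapping ISRE matches, and *Bst2*, *Gbp3*, *Ifit1*, *Ifit3*, *Irgm1* and *Oas1a* held 2 each. The log2 fold change had a median of 0.17 over the 16 genes with a match, 0.07 over the 10 without and 0.21 over the 9 with no promoter in the table.
The stretches below carry the match of 1 gene for each of 6 of the 8 roles, taken as the gene with a match and the smallest p in its role, and then the 6 smallest of these, with none shown for the OAS group or the ISG15 system. They are written along the gene's own strand with the match in capitals. They lie at chr11:58199487-58199566 (+) for *Igtp*, chr4:40239806-40239885 (-) for *Ddx58*, chr7:104465185-104465264 (-) for *Trim30a*, chr19:34583372-34583451 (+) for *Ifit3*, chr10:128270248-128270327 (+) for *Stat2* and chr12:26456528-26456607 (-) for *Rsad2*.
Igtp: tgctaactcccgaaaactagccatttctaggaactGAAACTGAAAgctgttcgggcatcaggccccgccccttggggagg
Ddx58: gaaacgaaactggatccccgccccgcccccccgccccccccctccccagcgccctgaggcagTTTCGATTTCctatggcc
Trim30a: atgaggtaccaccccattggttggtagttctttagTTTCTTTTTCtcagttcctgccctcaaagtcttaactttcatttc
Ifit3: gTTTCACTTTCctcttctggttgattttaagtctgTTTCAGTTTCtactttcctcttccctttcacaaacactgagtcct
Stat2: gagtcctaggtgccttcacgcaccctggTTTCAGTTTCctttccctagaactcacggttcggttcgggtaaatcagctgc
Rsad2: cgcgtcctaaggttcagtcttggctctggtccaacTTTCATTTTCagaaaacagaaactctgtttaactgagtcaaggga
The match began 34 bases before the start of *Igtp* and 36 bases before that of *Trim30a*, and in *Ddx58* it began 2 bases after the start. *Ifit3* carries the pair of matches seen in its line, and *Stat2*, itself a part of the complex that binds the ISRE, has its match near the far end of the window.

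Among the GTPases, proteins of the defense against intracellular microbes, all 6 log2 fold changes were positive and 1 gene reached an unadjusted p under 0.05. This was *Igtp* (ENSMUSG00000078853), which encodes IRGM3. Its level was 11.1 to 27.7 CPM in Cpt1aCKO mice with a median of 17.9, against 13.2, 15.2, 8.73, 14.8 and 10.2 CPM in floxed control mice. Of the Cpt1aCKO mice, 4 lay above every floxed control mouse and S2155 was highest. The difference on the log2 scale was 0.53 (standard error 0.22, edgeR unadjusted p = 0.0309, adjusted p = 0.823, exact permutation p = 0.0887, two-sided). The edgeR unadjusted p was above 0.05 in 4 of the 11 fits with a mouse left out. Of the 100-base windows in *Igtp* transcripts, 5.16% were shared with *Irgm2*.

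*Irgm1*, a regulator that holds other IRG proteins in check, had the largest CPM of the 35 genes. It stood at 48.7 to 73.7 CPM in Cpt1aCKO mice with a median of 60.7, against 48.5, 58.0, 59.1, 50.5 and 50.3 CPM in floxed control mice. S2155 and S2394 were highest at 73.7 and 72.2 CPM, but S7763, also Cpt1aCKO, lay below 4 of the 5 floxed control mice (edgeR adjusted p = 0.863). *Iigp1*, which encodes IRGA6, reached 15.2 CPM in S2155, and the other 5 Cpt1aCKO mice stood at 3.22 to 8.16 CPM, against 2.97 to 6.42 CPM in floxed control mice. *Gbp2*, *Gbp3* and *Gbp7*, guanylate-binding proteins of the same defense, had log2 fold changes of 0.38, 0.12 and 0.19. *Gbp2* averaged 8.1 ± 2.2 CPM in Cpt1aCKO mice and 6.21 ± 1.86 CPM in floxed control mice (SD, n = 6 and 5). Its difference was about as large as the SD within either group, and the edgeR adjusted p was 0.863.

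**Figure D4:**
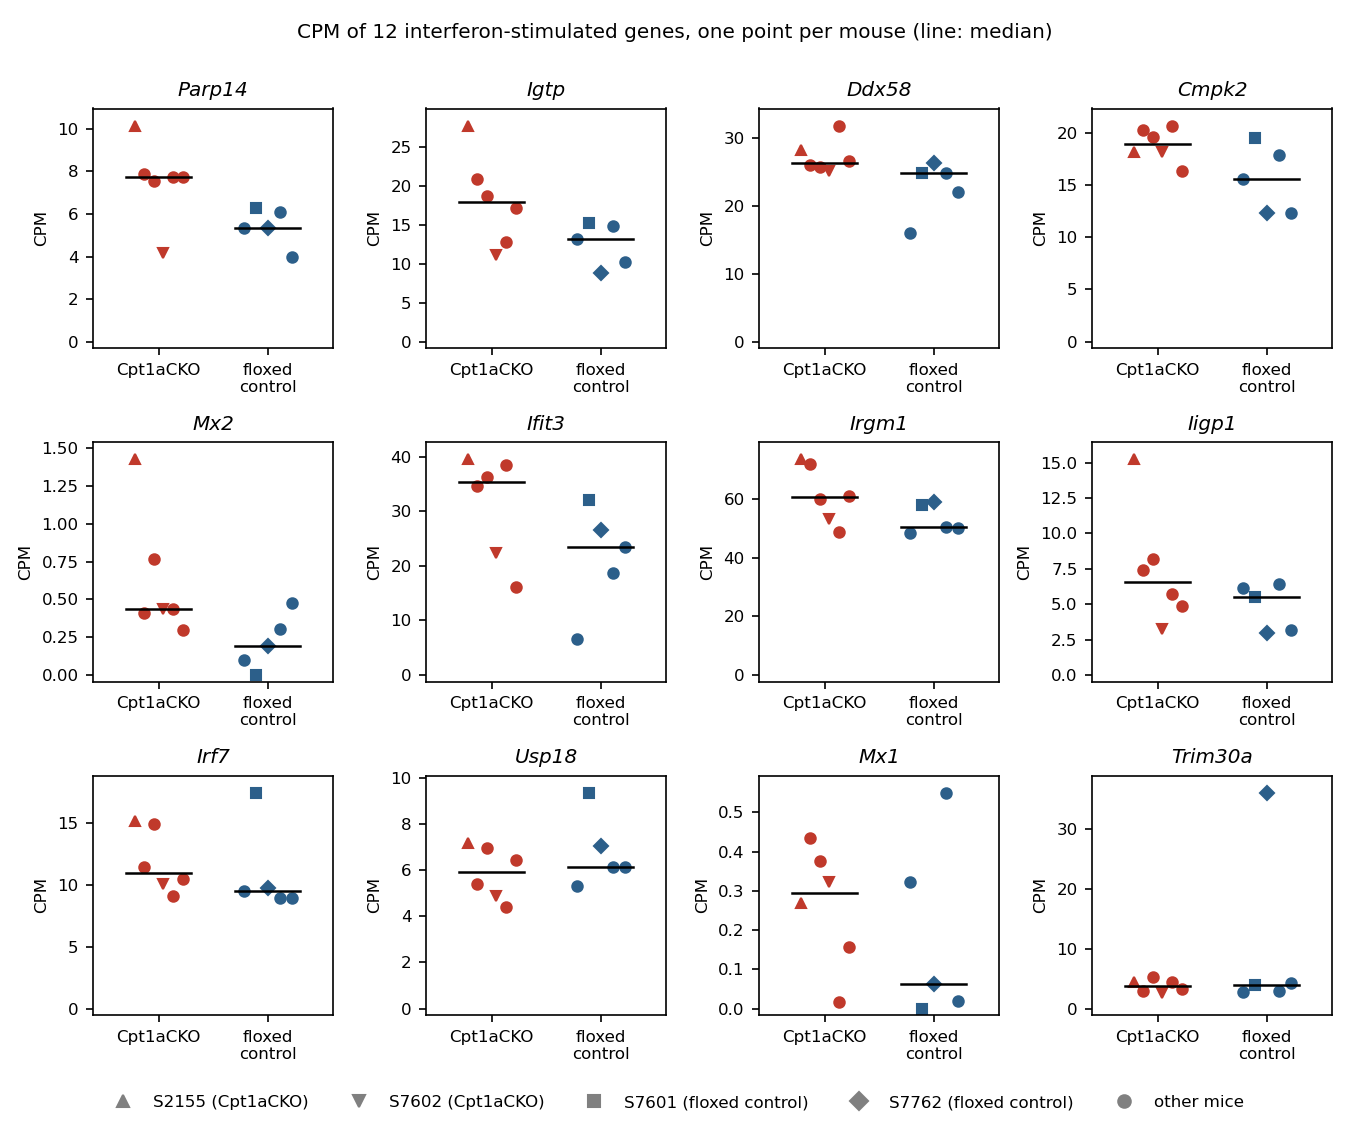
CPM of 12 of the 35 genes, 1 point per mouse, with the 6 Cpt1aCKO mice on the left and the 5 floxed control mice on the right of each panel and a line at each median. S2155 (upward triangle) is the highest point for *Igtp*, *Iigp1*, *Parp14*, *Mx2* and *Ifit3*, S7601 (square) is the highest for *Irf7* and *Usp18*, and S7762 (diamond) stands alone for *Trim30a* at 36.0 CPM.

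*Parp14* (ENSMUSG00000034422), an ADP-ribosyltransferase, had the smallest unadjusted p of the 35 genes. It measured 4.16 to 10.2 CPM in Cpt1aCKO mice with a median of 7.72, against 5.32, 6.28, 5.33, 6.1 and 3.98 CPM in floxed control mice. All Cpt1aCKO mice but S7602 lay above every floxed control mouse. Its log2 fold change was 0.48 (standard error 0.20, edgeR unadjusted p = 0.0278, adjusted p = 0.802, exact permutation p = 0.0866, two-sided), and the unadjusted p was above 0.05 without S2155 and without S2578.

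*Trim30a*, a TRIM protein known in mouse as a brake on inflammatory signaling, had the lowest log2 fold change, and 1 floxed control mouse set it. The level was 2.51 to 5.31 CPM in Cpt1aCKO mice with a median of 3.82, against 2.72, 3.85, 36.0, 2.98 and 4.23 CPM in floxed control mice. The high value belonged to S7762, with 1693 reads where the other 10 mice had 109 to 283. With this mouse the log2 fold change was -1.38 (standard error 0.68, edgeR adjusted p = 0.863), and without it 0.15 (edgeR adjusted p = 1). The neighboring family members in S7762 were at 0.55 CPM for *Trim30d*, its lowest of 11 mice, and at 6.69 CPM for *Trim12a*, inside the range of the other mice. Of the 100-base windows of *Trim30a*, 4.41% were shared with *Trim30d*.

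The other effectors showed small differences. *Bst2*, or tetherin, which holds budding virus at the cell surface, averaged 16.5 ± 3.48 CPM in Cpt1aCKO mice and 14.5 ± 3.59 CPM in floxed control mice (SD, n = 6 and 5). *Ifi35*, *Rtp4* and *Xaf1* had log2 fold changes of 0.12, 0.06 and 0.03, and *Isg20*, an exonuclease, and *Ifi44* had -0.04 and -0.09. All had an adjusted p of 0.903 or more in edgeR. 

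Of the Mx and viperin group, *Cmpk2* and *Mx2* reached an unadjusted p under 0.05 and *Rsad2* and *Mx1* did not. *Cmpk2* (ENSMUSG00000020638), a mitochondrial nucleotide kinase that lies beside *Rsad2*, stood at 16.3 to 20.7 CPM in Cpt1aCKO mice with a median of 18.9, against 15.6, 19.5, 12.3, 17.8 and 12.3 CPM in floxed control mice. The groups overlapped in their upper parts, and the 3 lowest values were all from floxed control mice (log2 fold change 0.28, standard error 0.13, edgeR unadjusted p = 0.045, adjusted p = 0.839). The edgeR unadjusted p of *Cmpk2* was above 0.05 in 8 of the 11 fits with a mouse left out. *Rsad2*, which encodes viperin and makes a chain-terminating nucleotide, averaged 25.6 ± 3.54 CPM in Cpt1aCKO mice and 23.7 ± 3.0 CPM in floxed control mice (SD, n = 6 and 5), with a largest mouse only 1.44-fold above the smallest.

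*Mx2* and *Mx1*, dynamin-like GTPases against viruses that many inbred laboratory strains carry in inactive form, had few reads. *Mx2* had 17 to 64 reads per Cpt1aCKO mouse, or 0.298 to 1.43 CPM with a median of 0.438, against 4, 0, 9, 17 and 24 reads in floxed control mice, or 0.0989, 0, 0.191, 0.301 and 0.475 CPM. S2155 had the 64 reads, and the floxed control mouse S7601 with 0 reads could hold up to 0.0578 CPM, the value of 3 reads. The log2 fold change of 1.54 (standard error 0.70, edgeR unadjusted p = 0.0445, adjusted p = 0.839, exact permutation p = 0.0281, two-sided) was 1.13 to 2.06 with each mouse left out. The edgeR unadjusted p was above 0.05 in 6 of those 11 fits. *Mx1* had 1 to 20 reads in Cpt1aCKO mice, against 13, 0, 3, 31 and 1 in floxed control mice. Both genotypes thus held mice with at most 1 read of *Mx1* and mice with 20 or more.

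Among the nucleic acid sensors, *Ddx58* (ENSMUSG00000040296), which encodes RIG-I, stood at 25.0 to 31.8 CPM in Cpt1aCKO mice with a median of 26.2, against 15.9, 24.9, 26.3, 24.7 and 22.04 CPM in floxed control mice. The lowest Cpt1aCKO mouse lay above all floxed controls but S7762, and S2152 was far below the rest. Between the genotypes the log2 fold change was 0.25 (standard error 0.12, edgeR unadjusted p = 0.0488, adjusted p = 0.839, exact permutation p = 0.0216, two-sided), and the unadjusted p was above 0.05 in 7 of the 11 fits with a mouse left out, S2152 and S2155 among them. *Ifih1*, which encodes the related sensor MDA5, had the smallest SD between mice of the 35 genes. It stood at 7.7 to 11.6 CPM in Cpt1aCKO mice with a median of 10.8, against 8.71, 9.22, 10.1, 10.9 and 8.85 CPM in floxed control mice. *Dhx58*, the third of these helicases, and *Zbp1*, a sensor of Z-form nucleic acid, had log2 fold changes of 0.12 and 0.05 with wide overlap.

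The IFIT proteins bind viral RNA that lacks the host's cap methylation. *Ifit3* stood at 16.2 to 39.5 CPM in Cpt1aCKO mice with a median of 35.4, against 6.65, 32.0, 26.5, 18.7 and 23.5 CPM in floxed control mice. Of the Cpt1aCKO mice, 4 lay above every floxed control mouse, and S2152 was lowest of all. The log2 fold change was 0.54 (standard error 0.35, edgeR unadjusted p = 0.156, adjusted p = 0.872), and the lowest value with a mouse left out was 0.31. *Ifit3* shares 31.7% of its 100-base windows with *Ifit3b*, and reads from these could not be placed in 1 gene. *Ifit3b* in S2152 was at 9.38 CPM, the lowest of the 11 mice, and the other 10 had 9.66 to 14.2 CPM. *Ifit1* and *Ifit2* had log2 fold changes of 0.05 and 0.06.

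In the OAS group, enzymes that make 2-5A to switch on RNase L or that relate to them, no gene reached an unadjusted p under 0.05 with all mice in the fit. *Oasl1* had the smallest p of the 5. It measured 2.51 to 5.44 CPM in Cpt1aCKO mice with a median of 4.27, against 2.28, 5.72, 2.27, 2.29 and 3.21 CPM in floxed control mice. S7601 was the highest of all, and 3 floxed control mice were lower than every Cpt1aCKO mouse (log2 fold change 0.34, standard error 0.28, edgeR unadjusted p = 0.245, adjusted p = 0.898). Without S7601 it was 0.67 (edgeR unadjusted p = 0.0163, adjusted p = 0.826). *Oas3* had 1 to 18 reads in Cpt1aCKO mice, against 11, 3, 15, 22 and 3 in floxed control mice, and its log2 fold change of -0.30 (edgeR unadjusted p = 0.697) was 0.026 without S2582. *Oas1a* shares 40.9% of its windows with *Oas1g*, so its 1.7 to 3.39 CPM in Cpt1aCKO mice, against 1.52 to 3.29 CPM in floxed control mice, are uncertain.

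*Isg15* and *Usp18* are a tag and its remover, since ISG15 is a ubiquitin-like protein attached to others and USP18 takes it off and also damps the receptor. *Isg15* averaged 3.3 ± 0.81 CPM in Cpt1aCKO mice and 2.96 ± 0.582 CPM in floxed control mice (SD, n = 6 and 5). *Usp18* stood at 4.41 to 7.16 CPM in Cpt1aCKO mice with a median of 5.91, against 5.32, 9.34, 7.05, 6.13 and 6.13 CPM in floxed control mice. S7601 was highest, and the log2 fold change of -0.21 (standard error 0.18, edgeR unadjusted p = 0.25, adjusted p = 0.898) was -0.07 at its weakest with a mouse left out.

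Of the transcription factors, *Stat2* stood at 10.4 to 17.7 CPM in Cpt1aCKO mice with a median of 13.5, against 14.7, 10.8, 11.8, 12.3 and 12.1 CPM in floxed control mice. S2155 was highest again, and the groups overlapped throughout (log2 fold change 0.13, standard error 0.13, edgeR unadjusted p = 0.34, adjusted p = 0.917, log2 fold change 0.04 to 0.21 with a mouse left out). *Irf7*, the factor that amplifies type I interferon, was 9.11 to 15.2 CPM in Cpt1aCKO mice with a median of 10.96, against 9.47, 17.4, 9.77, 8.94 and 8.92 CPM in floxed control mice. S7601 was the highest of the 11 mice, then S2155 and S2397, and the other 8 lay between 8.92 and 11.4 CPM. *Irf9*, the DNA-binding part of the ISRE complex, was highest in S2155 at 21.9 CPM and next in S7601 at 18.7 CPM.

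Per kilobase of exon in GENCODE M21, the 35 genes spanned a wide range of levels. *Bst2* was highest with a mean of 18.2 CPM per kb in Cpt1aCKO mice and 16.1 in floxed control mice, followed by *Ifit3* with 17.9 in Cpt1aCKO mice and 12.3 in floxed control mice and by *Irgm1* with 10.6 in Cpt1aCKO mice and 9.17 in floxed control mice. The lowest was *Oas3*, with 0.0253 CPM per kb in Cpt1aCKO mice and 0.0311 in floxed control mice, and next was *Mx1*, with 0.0694 in Cpt1aCKO mice and 0.0505 in floxed control mice. In CPM, 13 of the 35 genes had means above 10 in both groups, and 4 (*Mx1*, *Mx2*, *Oas2* and *Oas3*) had means below 1 in both.

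The interferons themselves were hardly read. Of 21 genes for type I, II and III interferons, 12 had any read and 0 passed the filter on low counts. S7602 held 61 reads on these genes, against 0 to 13 in the other 5 Cpt1aCKO mice and 2 to 14 in floxed control mice. They included 25 of *Ifnb1*, 14 of *Ifnl3* and 21 over the *Ifna* genes. The same library had 159 CPM on the 1407 olfactory receptor genes listed, against 9.04 to 21.5 CPM in the other Cpt1aCKO mice and, in floxed control mice, 10.9 to 40.0 CPM, so it stood apart there too. In S7602 the plasmacytoid dendritic cell markers summed to 5.84 CPM, against 2.61 to 4.01 CPM in floxed control mice. The neutrophil markers, most with too few reads to test, summed to 2.37 CPM in S7602, against 0.495 to 1.11 CPM in floxed control mice. Of these, *Mpo*, *Retnlg*, *Camp* and *Elane* were highest in S7602. *S100a8*, *S100a9* and *Cxcr2* lay inside the floxed control range in S7602, and *Ly6g* had 0 reads. The plasmacytoid dendritic cell sum and the neutrophil sum of S7602 were the highest of the 11 mice. The source of the interferon reads was not tested. Of the 11 mice, S7602 was also the one most often lowest in the 35 targets. *Ifng*, the type II interferon, had 10 reads in S2397, the mouse with the highest T and NK marker sum, and at most 1 in each of the other 10 mice.

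Genes that carry or limit the signal were read from lists chosen with earlier results of these data known. Of 15 receptors, kinases and signal transducers, *Ifnar1*, *Irf1* and *Irf8* were on the higher side in Cpt1aCKO mice at an unadjusted p under 0.05 and 0 on the lower. Their adjusted p was 0.808 to 0.826 in edgeR, and over all genes tested 3.35% were on the higher side. *Ifnar1*, a chain of the type I receptor, had 40.4 to 46.8 CPM in Cpt1aCKO mice with a median of 44.9, against 43.0, 37.5, 34.9, 40.75 and 40.2 CPM in floxed control mice. *Irf1* was at 11.1 to 18.5 CPM with a median of 16.6 in Cpt1aCKO mice, against 11.7 to 14.3 CPM in floxed control mice, and S7602 was the lowest of all 11. *Irf8*, a factor of macrophages and dendritic cells, had 16.8 to 32.4 CPM with a median of 28.7 in Cpt1aCKO mice, against 15.7 to 26.9 CPM with a median of 17.9 in floxed control mice. The abundant *Jak1*, *Irf3* and *Ifngr1* had log2 fold changes of 0.05, -0.07 and 0.18.

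Of 12 inhibitors tested, *Socs3* was on the higher side and *Rnaseh2c* on the lower at an unadjusted p under 0.05. Over all genes tested, 3.35% were on the higher side and 2.57% on the lower. *Rnaseh2c*, a subunit of the RNase that clears RNA from DNA hybrids, had 43.8 to 54.0 CPM in Cpt1aCKO mice with a median of 47.7, against 50.9 to 62.7 CPM in floxed control mice with a median of 55.8 (log2 fold change -0.25, standard error 0.08, edgeR unadjusted p = 0.00484, adjusted p = 0.655). Of the Cpt1aCKO mice, 1 lay above the lowest floxed control. *Socs3*, a feedback inhibitor of JAK signaling, was at 2.41 to 7.18 CPM in Cpt1aCKO mice, against 2.16 to 2.89 CPM in floxed control mice. *Irf2bp2*, *Ptpn11* and *Pias1*, the other abundant inhibitors, had log2 fold changes of 0.46, 0.09 and 0.07. For *Irf2bp2* (edgeR adjusted p = 0.863) the floxed control mouse S7762 stood at 34.1 CPM and the other floxed control mice at 91.5 to 107 CPM. Of 11 sensing adaptors tested, 0 were at an unadjusted p under 0.05 in edgeR and 0 in DESeq2, among them *Mavs* at -0.02, *Tbk1* at 0.09 and *Unc93b1* at 0.08 on the log2 scale.

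A further 67 interferon-stimulated genes outside the 35 gave 7 on the higher side in Cpt1aCKO mice and 2 on the lower at an unadjusted p under 0.05. Over all genes tested, 3.35% were on the higher side and 2.57% on the lower. Of the 67, 48 had positive log2 fold changes, against 51.4% of all genes. In edgeR 0 of the 67 passed adjustment, and in DESeq2 1 did. S2155 was the highest mouse for 19 of them and S2397 for 18, against 11.9% and 7.02% of all genes tested. Those on the higher side were *Nlrc5*, *Parp9*, *Ifi47*, *Gbp2b*, *Irgm2*, *Dtx3l* and *Psmb8*, and those on the lower were *Shisa5* and *Ifi207*. *Parp9*, which works with *Dtx3l*, was at 13.2 to 21.4 CPM in Cpt1aCKO mice with a median of 16.5, against 11.5 to 15.5 CPM in floxed control mice with a median of 11.7 (edgeR adjusted p = 0.741). The abundant *Samd9l*, *Ifi27* and *Lgals3bp* had log2 fold changes of 0.09, 0.11 and 0.29.

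*Nlrc5*, the activator of MHC class I genes, was the one of these whose groups did not overlap, where 0.341% of all genes lay wholly above. It was at 5.04, 3.3, 4.65, 2.58, 3.19 and 3.18 CPM in Cpt1aCKO mice, against 0.965, 1.5, 0.574, 2.04 and 1.72 CPM in floxed control mice. S2155 was highest here too, but the other 5 Cpt1aCKO mice were also above every floxed control. The log2 fold change was 1.42 (standard error 0.30, edgeR unadjusted p = 0.000331, adjusted p = 0.388, DESeq2 adjusted p = 0.00303). The exact permutation p was 0.00216, two-sided, the smallest that 6 mice against 5 allow (0.715 after adjustment over all genes). With each mouse left out in turn the log2 fold change was 1.23 to 1.62.

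**Figure D5:**
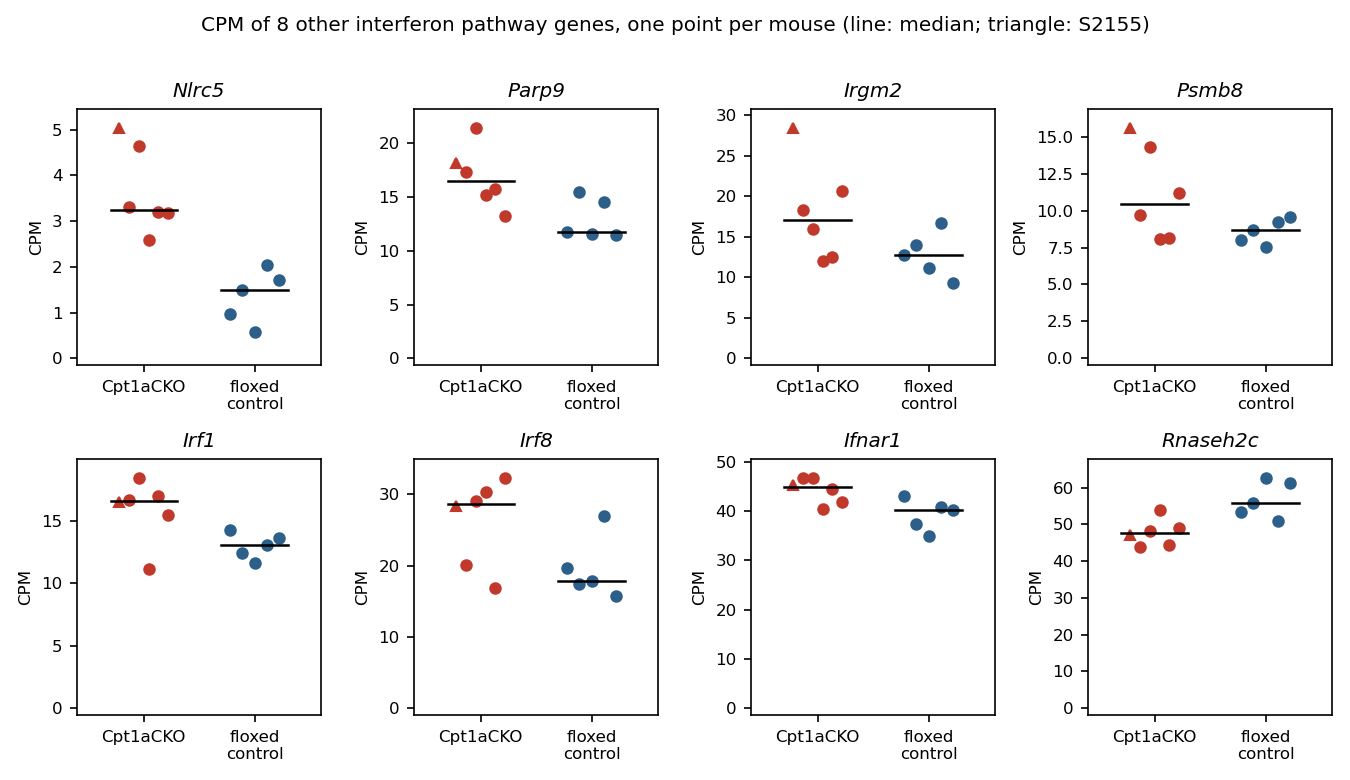
CPM of 8 interferon pathway genes outside the 35, 1 point per mouse, with Cpt1aCKO mice on the left and floxed control mice on the right of each panel, a line at each median and S2155 as a triangle. For *Nlrc5* the lowest Cpt1aCKO mouse (2.58 CPM) is above the highest floxed control mouse (2.04 CPM), and for the other 7 genes the points of the groups overlap.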

How the data were processed

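RNA-Seq of renal cortex from 11 mice was analyzed, each mouse as 1 library. The authors aligned stranded TruSeq reads with STAR 2.7.3a and deposited raw read counts per gene from HTSeq; no HTSeq version, genome build or annotation release is given in the sources used here. The 11 columns of normalized counts and the authors' own fold changes and p-values, which hold their comparison of the genotypes, were not used.

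Of 53801 genes listed, 12108 had no reads. Reads counted per library were 43027049 to 57459929 in Cpt1aCKO mice and 39628721 to 56241595 in floxed control mice. Raw counts were filtered with filterByExpr (18160 genes kept), scaled by TMM and tested by edgeR 4.0.16 (robust quasi-likelihood fit, genotype alone, Benjamini-Hochberg adjustment over all genes tested) in R 4.3.3. For single genes an exact permutation test was run over the 462 ways to choose 6 of 11 mice. Log2 CPM used a prior count of 2. DESeq2 1.42.0, voom (limma 3.58.1), other scalings and filters, a covariate for the number series of the mouse names and fits with 1 mouse left out were alternatives. The closest 2 libraries differed by 24.62 times the sampling noise, so none was a copy. Scripts were tested on simulated data. The study calls the controls of its aged mice littermates, but no source used here assigns mice to litters, so they were analyzed unpaired.

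The members and gene lists were chosen with earlier results of these data known. Values per mouse are printed for members at an unadjusted p under 0.05, the smallest p of each of 8 role groups and the extremes of the spread between mice; *Trim30a*, *Irgm1*, *Iigp1*, *Irf7* and *Irf9* were added after their values were seen. Pathway genes named are those at an unadjusted p under 0.05 and up to 3 more per list by CPM. Shared 100-base windows and exon lengths come from GENCODE M21, where 53706 of the gene identifiers were found. Intervals and the floor of 3 reads cover counting error only.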

Additional observations from a re-analysis of the deposited data

Results flagged for a closer look

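In each genotype the highest and the lowest mouse were compared with the rest of their group for each of the 35 genes. A mouse was singled out when its gap to the next mouse on the log2 scale took up most of the range of its group. Of the 70 pairs of genotype and gene, 4 were singled out, where about 1 in 20, or 3.5, is expected by chance. The floxed control mouse S7762 had 36 CPM of *Trim30a*, against 2.72 to 4.23 CPM in the other floxed control mice. The floxed control mouse S7601 had 17.4 CPM of *Irf7*, against 8.92 to 9.77 CPM, and 18.7 CPM of *Irf9*, against 13.6 to 14.4 CPM. The Cpt1aCKO mouse S7602 had 4.16 CPM of *Parp14*, against 7.56 to 10.1 CPM in the other Cpt1aCKO mice. S2155, the highest mouse for 16 of the 35 genes, was not singled out for any of them by this measure.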

How the results depend on the processing

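The count of 35 genes at an adjusted p under 0.05 was 0 under all alternatives run. At an unadjusted p under 0.05 the number on the higher side was 4 to 6 under other tests, scalings, filters and the number-series covariate, and 0 to 7 with each mouse left out. The number on the lower side was 1 (*Trim30a*) in a fit without the robust option and 0 to 1 with a mouse left out. Positive log2 fold changes numbered 27 to 30 and 21 to 31, and their median was 0.12 to 0.16 and 0.05 to 0.23. With a mouse left out, 0 to 1 genes had groups that did not overlap (*Parp14*, without S7602), and the median SD between mice was 0.33 to 0.38. The share of all genes without overlap was not taken in those fits. S2155 stayed highest for 16 to 20 genes and S7602 lowest for 8 to 11. The log2 fold change of *Trim30a* was -1.62 to 0.15 with a mouse left out and turned positive without S7762, and that of *Oas3* was -0.54 to 0.026 and turned positive without S2582.

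Of the further 67 genes, 12 were on the higher side in DESeq2 and 11 without a filter, and on the lower side 0 with library size only, 0 without a filter and 1 with the number-series covariate. With a mouse left out these were 3 to 15 and 0 to 3. Voom put 0 inhibitors on the higher side. With a mouse left out 0 to 1 inhibitors, 0 to 4 receptors and transducers and 0 to 1 sensing adaptors were on the higher side. The filter at a mean of 1 CPM gave no value for *Mx1*, *Mx2*, *Oas3* and *Gbp2b*, some fits with a mouse left out gave none for *Gbp2b*, and DESeq2 gave no p for *Trim30a*. The cause of these shifts was not tested. Of 503 alternative values of 27 named genes, 389 kept their side of the unadjusted threshold, 106 lost it, 6 gained it and 2 turned direction (those of *Trim30a* and *Oas3* above). No paired analysis was possible because, although the study calls its aged controls littermates, the labels give no replicate numbers and assign no mouse to a litter or pair. Genes with few reads (*Mx1*, *Mx2*, *Oas3*) are limited by counting, and without a filter more such genes are tested.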
